A study of Mus musculus with 33 samples.

Results

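The prolactin receptor and its STAT5 signalling genes were described here in subcutaneous Myc-CaP prostate tumours as 6 genes: Prlr, Ghr, Stat5a, Stat5b, Cish and Socs2. They were taken by gene symbol from a table of 48795 genes and all 6 had a row; all 6 also passed the filter on low values that left 15846 genes for testing. The set was chosen by the Prlr values of these same tumours, which were higher with ESK981, so the difference between ESK981 and vehicle is given as a description of these tumours, without a test.

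Prolactin and growth hormone bind cell-surface receptors of the class I cytokine family, the prolactin receptor PRLR and the growth hormone receptor GHR, which have no kinase domain and signal through the bound kinase JAK2. JAK2 phosphorylates STAT5A and STAT5B, a pair of closely related transcription factors that enter the nucleus and bind the palindromic GAS motif. Among the genes they switch on are Cish and Socs2, whose products damp signalling from the same receptors. In the mouse mammary gland the route drives milk protein genes, and in the prostate prolactin and STAT5 have been studied as supporters of epithelial survival and growth.

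Myc-CaP is a mouse prostate cancer line derived from the FVB Hi-Myc model, in which a prostate-specific promoter drives MYC; ESK981 is an oral kinase inhibitor that, by the title of the study, acts on the lipid kinase PIKfyve, and anti-PD-1 is a checkpoint antibody. Tumours grew under the skin of both flanks of immunocompetent male FVB mice, the treatment began at 50 mm3 and lasted 3 weeks. The ESK981 group (5 mice, 8 tumours) received 15 mg/kg by gavage on 5 days a week, the combination group (5 mice, 8 tumours) received ESK981 and anti-PD-1, the anti-PD-1 group (5 mice, 7 tumours) received 200 µg of antibody per mouse 3 times a week, and the vehicle group (5 mice, 10 tumours) is the control. Controls for the drug were given its vehicle and controls for the antibody an isotype antibody. All 33 tumours came from a single injected cell line, the ages of the mice are not in the sources used here, and 13 of the 20 mice gave a tumour from each flank, so the mouse, averaged over its tumours, is the replicate throughout.

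Expression is in FPKM, fragments scaled to exon length and library size, from total RNA depleted of ribosomal RNA. Depth was 18081400 to 32439000 fragments a tumour in the ESK981 group, 17832000 to 24812300 in the combination group, 11317300 to 24191100 in the anti-PD-1 group and 9901150 to 18353800 in the vehicle group. There were 2 flow cells: 9 of the 10 vehicle tumours ran on a separate one, and vehicle 5R ran with the treated tumours, so a comparison with vehicle also compares flow cells. Ribosomal RNA-like reads were 2.31 to 14.7% of fragments in ESK981 tumours, 2.88 to 16.7% in combination tumours, 5.82 to 23.96% in anti-PD-1 tumours and 8.87 to 35.3% in vehicle tumours. Combination 5R, anti-PD-1 4R and vehicle 5R, called the 3 doubtful libraries below, stood apart in RNA composition, and ESK981 1R and 2R in proliferation genes; values without them are given where they matter. Of the luminal prostate markers, Foxa1, Hoxb13 and Krt8 were detected in all groups, whereas Epcam, Krt18 and Cdh1 averaged below 0.4 FPKM in every group.

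Prlr, at chr15:10177238-10349180 on the plus strand (GRCm38), was the most abundant of the 6 transcripts in every group and the one that varied most between groups. The deposited values count the whole gene, so the long and short receptor forms that the gene makes by splicing are not separated. In ESK981 tumours Prlr was at 14.12 (1L), 39.27 (1R), 34.76 (2R), 17.85 (3L), 15.68 (3R), 18.21 (4R), 18.60 (5L) and 19.25 (5R) FPKM. In combination tumours it was at 22.69 (1L), 14.48 (1R), 12.33 (2R), 13.51 (3L), 16.88 (3R), 19.71 (4L), 18.48 (4R) and 7.86 (5R) FPKM. Anti-PD-1 tumours had 13.10 (1R), 20.85 (2R), 14.05 (3L), 11.39 (3R), 14.26 (4L), 8.89 (4R) and 11.04 (5L) FPKM. In these labels the digit is the mouse and the letter the flank; every ESK981 tumour lay above the highest vehicle tumour, while combination and anti-PD-1 tumours spread across the gap and into both. Vehicle tumours had 11.53 (1L), 8.61 (1R), 9.95 (2L), 7.24 (2R), 7.75 (3L), 12.75 (3R), 10.53 (4L), 10.10 (4R), 10.43 (5L) and 5.998 (5R) FPKM.

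**Figure D1:**
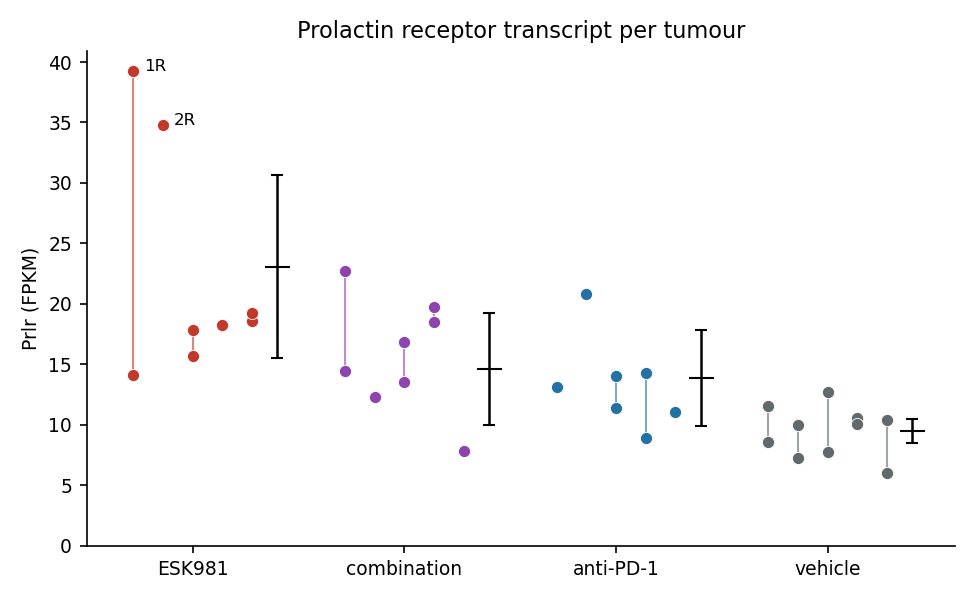
Prlr in FPKM (vertical axis) for each tumour, by treatment group (horizontal axis). Points joined by a line are the left and right tumour of a mouse; the black bar and whiskers are the mean and SD over 5 mice. ESK981 tumours run from 14.12 to 39.27 FPKM, above the vehicle tumours, which run from 5.998 to 12.75 FPKM.

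Averaged by mouse, Prlr was at 23.07 ± 7.59 FPKM in ESK981, 14.61 ± 4.67 in combination, 13.86 ± 3.998 in anti-PD-1 and 9.49 ± 1.002 in vehicle tumours (SD, n = 5 mice each). In that order the neighbours combination and anti-PD-1 overlapped almost completely, and combination overlapped both ESK981 and vehicle; the anti-PD-1 mice (11.04 to 20.85 FPKM) did not overlap the vehicle mice (8.22 to 10.31 FPKM), nor did the ESK981 mice (16.77 to 34.76 FPKM). The overlap of combination with vehicle rested on combination mouse 5, whose only tumour is the doubtful library 5R, at 7.86 FPKM; the other 4 combination mice had 12.33 to 19.1 FPKM. After rescaling each tumour to its nuclear protein-coding total, combination mice had 12.02 to 16.99 and vehicle mice 8.41 to 10.41, without overlap. Anti-PD-1 mice, at 10.32 to 20.44, then overlapped vehicle mice. The share of all genes that separated combination from vehicle mice after this rescaling was not counted. The rescaled limma fit called 1541 genes in that comparison, against 96 as deposited. Nothing is read from the separation for Prlr, because the vehicle values took part in its choice. The contrast that chose the gene, ESK981 against vehicle, had a log2 fold change of 1.18 ± 0.23 (SE), 2.26-fold. Without the tumours 1R and 2R, the highest of the group, the log2 fold change was 0.83. With flow cell as a term it was 1.74, a value in which vehicle on the shared flow cell is represented by the single library 5R.

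Within a mouse, the tumours of the 2 flanks differed in Prlr by a median of 1.34-fold over the 13 mice with both, and the right flank was higher in 4 of the 13. The widest gap was in ESK981 mouse 1, with 39.27 FPKM on the right against 14.12 FPKM on the left, 2.78-fold. The tumours ESK981 1R and 2R, the highest for Prlr of all 33, also had Mki67, a marker of cycling cells, at 2.80 and 2.70 FPKM, where the other 6 ESK981 tumours had 25.93 to 36.11 FPKM. Top2a, a topoisomerase of dividing cells, was at 3.12 and 3.01 FPKM in these tumours. The part of these differences in the Prlr level was not tested. In bulk tumours, a change in the share of cells that express a gene and a change of transcript per cell cannot be told apart.

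Ghr, the growth hormone receptor gene at chr15:3317760-3583492 on the minus strand, was the lowest of the 6. It ranged from 0.35 to 1.495 FPKM over ESK981 tumours with a median of 0.56, from 0.23 to 1.15 with a median of 0.53 over combination tumours, from 0.41 to 0.82 with a median of 0.69 over anti-PD-1 tumours and from 0.26 to 1.30 with a median of 0.51 over vehicle tumours. These values rest on 23 to 439 fragments a tumour, whereas Prlr rested on 911 to 19540. Group means were 0.71 ± 0.29, 0.56 ± 0.32, 0.64 ± 0.16 and 0.59 ± 0.28 FPKM in ESK981, combination, anti-PD-1 and vehicle mice (SD, n = 5 each), and the mice of every pair of groups overlapped. Its highest tumour, ESK981 1R, was also the highest for Prlr.

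The STAT5 genes lie side by side on chromosome 11, Stat5b at chr11:100780731-100850724 on the minus strand and Stat5a at chr11:100859351-100885169 on the plus strand. Their coding sequences are closely alike, so reads shared by both make the split between them uncertain; Stat5a also shares 72 exon bases with Stat3 on the opposite strand, and the strand setting of the counting is not given in the sources used here. Stat5b was the more abundant, at 5.47 ± 1.196 FPKM in ESK981, 5.77 ± 1.38 in combination, 6.45 ± 1.28 in anti-PD-1 and 5.85 ± 1.07 in vehicle mice. Stat5a was at 2.28 ± 0.47, 2.40 ± 0.47, 2.70 ± 0.82 and 2.43 ± 0.49 FPKM in the same order of groups (SD, n = 5 mice each). All groups overlapped for both genes, and ESK981 against vehicle differed by a log2 fold change of -0.05 ± 0.18 for Stat5a and -0.10 ± 0.19 for Stat5b (SE). The ESK981 tumours 1R and 2R, highest for Prlr, were the lowest of their group for Stat5b, at 4.05 and 3.84 FPKM against 5.13 to 7.21 FPKM in the other 6. For Stat5a they were the highest of their group, at 2.74 and 2.86 FPKM.

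Cish and Socs2 encode SH2-domain proteins of the SOCS family that are transcribed in response to STAT5 and act as feedback inhibitors. Cish, at chr9:107296026-107302784 on the plus strand, averaged 3.43 ± 0.76 FPKM in ESK981, 3.06 ± 0.74 in combination, 3.50 ± 0.27 in anti-PD-1 and 2.51 ± 0.62 in vehicle mice (SD, n = 5 each). The ESK981 tumours had 1.88 to 4.93 FPKM and a median of 3.14, the combination tumours 1.97 to 4.12 and a median of 2.83, the anti-PD-1 tumours 1.61 to 4.45 and a median of 3.56, and the vehicle tumours 0.96 to 3.13 and a median of 2.71. The 5 anti-PD-1 mice, at 3.03 to 3.71 FPKM, all lay above the 5 vehicle mice, at 1.48 to 2.99 FPKM, whereas ESK981 and combination mice overlapped vehicle mice. Antisense genes share 261 and 479 exon bases with Cish, but neither Gm17040 nor Gm17041 went above 0.43 FPKM in any tumour.

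Socs2, at chr10:95385362-95417180 on the minus strand, averaged 5.00 ± 1.14 FPKM in ESK981, 4.01 ± 0.74 in combination, 4.05 ± 0.87 in anti-PD-1 and 3.11 ± 0.43 in vehicle mice (SD, n = 5 each). ESK981 tumours had 3.77 to 7.77 FPKM with a median of 4.14, combination tumours 2.76 to 4.76 with a median of 4.23, anti-PD-1 tumours 1.95 to 5.39 with a median of 4.09 and vehicle tumours 1.95 to 4.10 with a median of 2.98. The order of the group means was the order of Prlr except that combination and anti-PD-1, which did not differ beyond their spread in either gene, changed places. In ESK981 against vehicle the log2 fold change was 0.59 ± 0.16 for Socs2 and 0.39 ± 0.18 for Cish (SE), both without a test, and without ESK981 1R and 2R these values were 0.37 and 0.20. With flow cell as a term they were 1.08 and 1.3. Over mice, 2 of the 6 genes, Prlr and Socs2, had all ESK981 mice above all vehicle mice; 11.0% of all genes tested did so, and nothing is read from the count because it lies in the contrast that chose the set. The median log2 fold change of all genes in that contrast was 0.11 as deposited and -0.01 after median-of-ratios scaling, under which Prlr was at 1.02 and Socs2 at 0.45.

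**Figure D2:**
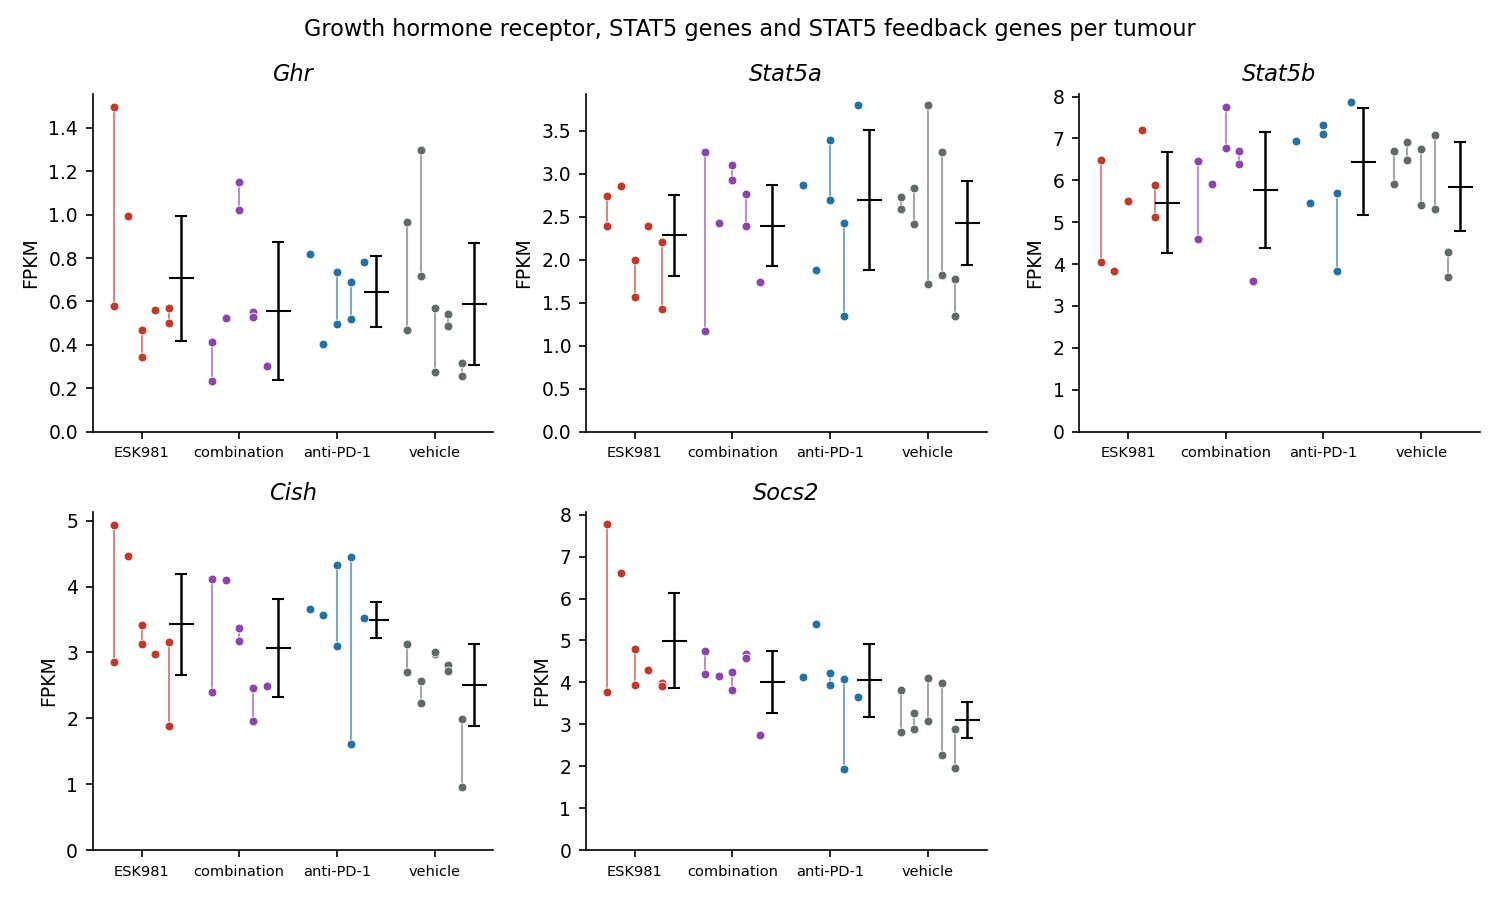
Ghr, Stat5a, Stat5b, Cish and Socs2 in FPKM (vertical axes) for each tumour by treatment group. Lines join the tumours of a mouse; black bars and whiskers are the mean and SD over 5 mice. Socs2 averages 5.00 FPKM in ESK981 and 3.11 FPKM in vehicle mice, while the groups overlap for Ghr, Stat5a and Stat5b.

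The GAS motif that STAT5 dimers bind was looked up in RefSeq promoter windows (GRCm38.p6, 250 bases before to 50 bases after each annotated start), since Cish and Socs2 are the transcriptional output of the route. The motif searched was TTCNNNGAA, which reads the same on both strands and so was counted once per site. It occurred in 2726 of 32851 windows (8.30%), and 2 or more times in 150 of them (0.457%). Of the 6 genes, 5 had windows in the table, 10 in all, and 2 of the 10 held the motif; Socs2 had no entry. The Cish window, chr9:107296409-107296708 on the plus strand, holds 2 matches, TTCCTGGAA and TTCTTGGAA, 2 bases apart, and the window at the second listed start of Prlr, chr15:10223656-10223955 on the plus strand, holds 1, TTCTAGGAA. Capitals mark the matches; a match is a run of letters and not evidence of binding.
Cish: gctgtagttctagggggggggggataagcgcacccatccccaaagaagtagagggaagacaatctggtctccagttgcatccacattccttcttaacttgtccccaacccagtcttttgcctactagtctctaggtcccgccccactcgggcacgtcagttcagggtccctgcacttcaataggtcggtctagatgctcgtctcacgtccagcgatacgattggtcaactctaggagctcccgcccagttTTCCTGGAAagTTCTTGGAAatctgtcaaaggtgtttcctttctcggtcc
Prlr, second start: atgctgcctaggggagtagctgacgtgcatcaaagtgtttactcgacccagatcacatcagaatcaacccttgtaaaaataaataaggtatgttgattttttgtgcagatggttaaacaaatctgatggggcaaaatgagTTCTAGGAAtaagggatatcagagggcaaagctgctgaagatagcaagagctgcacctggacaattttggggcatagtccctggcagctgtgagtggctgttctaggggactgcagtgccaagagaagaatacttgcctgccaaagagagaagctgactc
The windows at the other starts of Prlr and those of Ghr, Stat5a and Stat5b did not hold these letters. The Cish pair starts at base 251 and base 262 of its window, so that the first begins at the annotated start and the second just after it, and the Prlr match starts at base 141, upstream of the start.

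Whether ESK981 moved these genes on top of anti-PD-1 is the comparison that did not enter the choice of the set: combination against anti-PD-1, with both groups on the same flow cell but on different lanes, 4 and 5 for combination and 6 for anti-PD-1, so that lane and treatment cannot be told apart. None of the 6 genes passed (limma on log2(FPKM + 0.5), Benjamini-Hochberg adjusted p = 0.9995 for each), beside 0.00% of the 15846 genes tested; 942 genes had an unadjusted p under 0.05, and 59 genes passed without anti-PD-1 mouse 5, none of the 6 among them. Prlr was at 14.61 FPKM in combination and 13.86 FPKM in anti-PD-1 mice, a log2 fold change of 0.05 ± 0.23 (SE) with a 95% interval of -0.42 to 0.52 (exact two-sided permutation p = 0.865, 5 against 5 mice). Socs2 had a log2 fold change of 0.004 ± 0.16 (exact two-sided permutation p = 0.992, 5 against 5 mice). The remaining values were -0.15 ± 0.20 for Ghr, -0.13 ± 0.18 for Stat5a, -0.16 ± 0.19 for Stat5b and -0.17 ± 0.18 for Cish, with exact permutation p-values between 0.302 and 0.516; the median of all genes was -0.09. The smallest p that 5 against 5 mice allow in this test is 0.00794.

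The other comparisons share vehicle or ESK981 tumours with the contrast that chose Prlr, so its values there are estimates with no p. Combination against ESK981 gave Prlr a log2 fold change of -0.62 ± 0.23, and -0.28 without ESK981 1R and 2R. Anti-PD-1 against vehicle gave 0.51 ± 0.23 and combination against vehicle 0.55 ± 0.23 (SE); with flow cell as a term these were 1.08 and 1.25. The interaction, the effect of ESK981 with anti-PD-1 minus its effect without, was -1.13 ± 0.32 for Prlr, and -0.78 without ESK981 1R and 2R. With all tumours and no flow cell term, the median of all genes was 0.126 in anti-PD-1 against vehicle and -0.215 in the interaction.

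Of the other 5 genes, none passed in combination against ESK981, where 0.00% of all genes did (adjusted p from 0.71 for Socs2 to 0.957 for Stat5a; 1226 genes had an unadjusted p under 0.05). None of the 5 passed in anti-PD-1 against vehicle, where 0.783% of all genes did and the median of all genes was 0.126. There Cish had 0.42 ± 0.18 (limma adjusted p = 0.306) and Socs2 0.33 ± 0.16 (limma adjusted p = 0.402). Without the 3 doubtful libraries both passed, Cish at 0.46 (limma adjusted p = 0.047) and Socs2 at 0.37 (limma adjusted p = 0.0471), in a fit where 11.2% of all genes passed. With flow cell as a term Cish was at 1.34, where the median of all genes was 0.60. In each fit with that term, vehicle on the shared flow cell is the single doubtful library 5R, at 0.96 FPKM the lowest vehicle tumour for Cish. Only effect sizes are therefore given here for those fits. All anti-PD-1 mice lay above all vehicle mice for Prlr and Cish, an arrangement that 2.88% of all genes showed in the deposited values. Nothing is read from this for Prlr, because the vehicle values took part in its choice. After rescaling to the nuclear protein-coding total, the lowest anti-PD-1 mouse (10.32) fell below the highest vehicle mouse (10.41) for Prlr. In combination against vehicle none of the 5 passed beside 0.606% of all genes. With flow cell as a term Socs2 had 0.88 and Cish 1.17 in that comparison, where the median of all genes was 0.56. In the interaction none passed beside 0.0252% of all genes, and the median of all genes was -0.215. Socs2 had -0.59 ± 0.23 (limma adjusted p = 0.207) and Cish -0.55 ± 0.25 (limma adjusted p = 0.253). With flow cell as a term, the interactions were -0.999 for Socs2 (limma adjusted p = 0.0463) and -1.47 for Cish (limma adjusted p = 0.0125), in a fit that called 25.5% of all genes and had a median of -0.64.

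**Figure D3:**
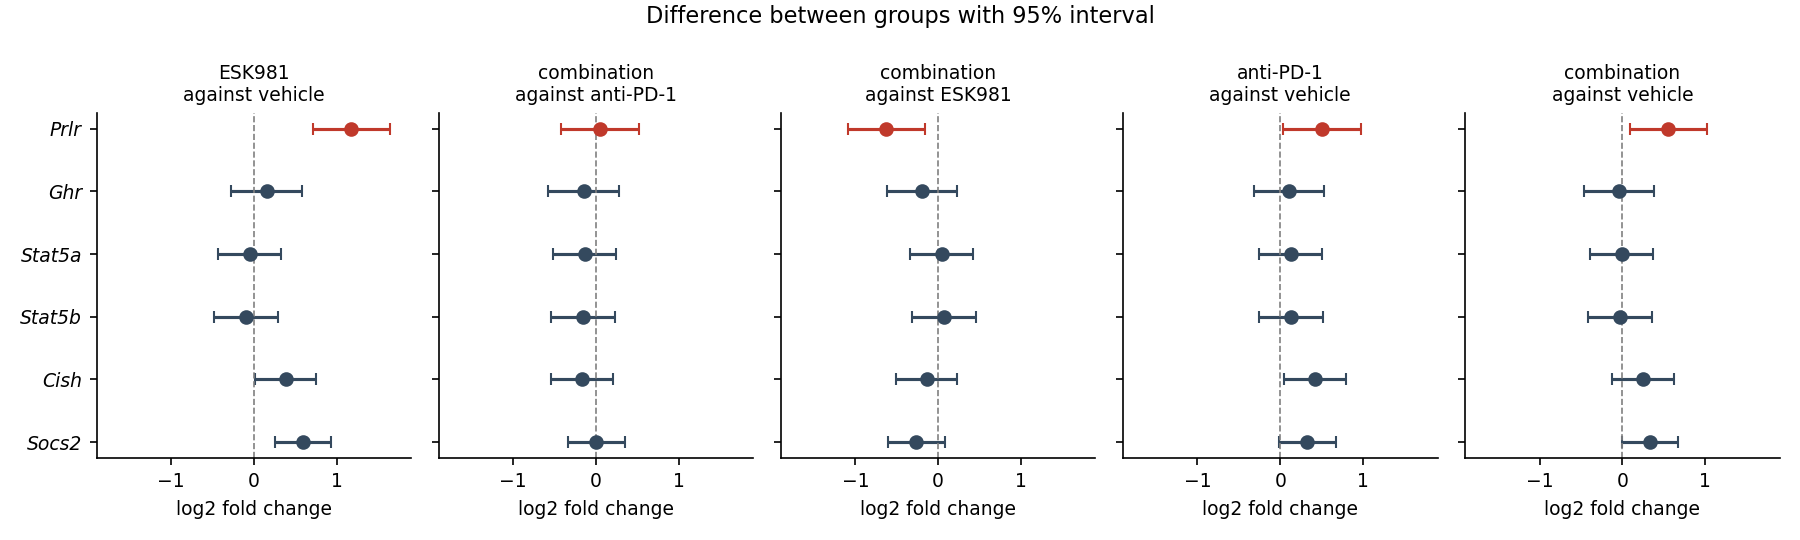
Log2 fold change with its 95% interval (horizontal axis) for each of the 6 genes (vertical axis) in 5 comparisons; the first-named group is on top of the fold and the dashed line marks no difference. Prlr, in red, sits at 1.18 for ESK981 against vehicle and at 0.05 for combination against anti-PD-1. All intervals in ESK981 against vehicle are descriptions, as are those of Prlr outside combination against anti-PD-1. The values there took part in the choice of the set, so an interval clear of the dashed line is not a test.

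With the group means taken out, the expression of Prlr and Socs2 went together from mouse to mouse. Over 20 mice, Pearson's r was 0.889 (permutation within groups, p adjusted over 15 pairs 0.00045) and Spearman's rho 0.854 (permutation, adjusted p = 0.00128). Without the mice farthest from the Prlr median, combination 5 and ESK981 2, r was 0.824 over 18 mice. It was 0.836 after rescaling each tumour to its nuclear protein-coding total and 0.849 without ESK981 mice 1 and 2. This relation is within groups, so the difference between ESK981 and vehicle that chose Prlr does not enter it. Many other genes also went with Prlr over the tumours, as given below, and how particular the relation is to this pair was not tested.

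Prlr and Cish, the other feedback gene, had r = 0.375 over the same mice (permutation, adjusted p = 0.202) and rho = 0.486 (permutation, adjusted p = 0.0962). Cish went with Socs2 (r = 0.643, permutation, adjusted p = 0.0147; rho = 0.627, adjusted p = 0.0348), but not past the threshold without the 3 doubtful libraries, at r = 0.447 (permutation, adjusted p = 0.217), nor without ESK981 1R and 2R, at r = 0.533 (permutation, adjusted p = 0.0741). The receptor gene Ghr went with Stat5a (r = 0.759, permutation, adjusted p = 0.00112; rho = 0.805, adjusted p = 0.0012) and kept to r = 0.779 without vehicle mouse 2 and combination mouse 3. Stat5a and Stat5b had r = 0.644 (permutation, adjusted p = 0.019) and rho = 0.604 (permutation, adjusted p = 0.041). Their r depended on the setting, at 0.351 (permutation, adjusted p = 0.395) after median-of-ratios scaling and 0.462 (permutation, adjusted p = 0.217) without the 3 doubtful libraries. It was 0.933 without ESK981 mice 1 and 2. Stat5a and Cish had r = 0.599 (permutation, adjusted p = 0.0221) and rho = 0.529 (permutation, adjusted p = 0.0547), with r = 0.410 without anti-PD-1 mouse 4 and vehicle mouse 5. This pair missed the threshold without the 3 doubtful libraries, at r = 0.342 (permutation, adjusted p = 0.34). It also did so without ESK981 1R and 2R (r = 0.516, permutation, adjusted p = 0.0741) and after median-of-ratios scaling (r = 0.522, permutation, adjusted p = 0.0569). The pair Prlr and Stat5b had r = 0.072 (permutation, adjusted p = 0.796) as deposited and r = -0.597 after rescaling to the nuclear protein-coding total. The remaining 8 pairs did not pass in the deposited values. Without vehicle mouse 5 the adjusted permutation p was 0.159 for Stat5a and Stat5b, 0.203 for Stat5a and Cish and 0.111 for Cish and Socs2, and without anti-PD-1 mouse 4 it was 0.053, 0.0537 and 0.053 for the same pairs. Stat5a and Cish also missed the threshold without ESK981 mouse 2 (permutation, adjusted p = 0.0501), and Stat5a and Stat5b without combination mouse 5 (permutation, adjusted p = 0.0618). Prlr with Socs2 and Ghr with Stat5a passed with any single mouse left out.

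**Figure D4:**
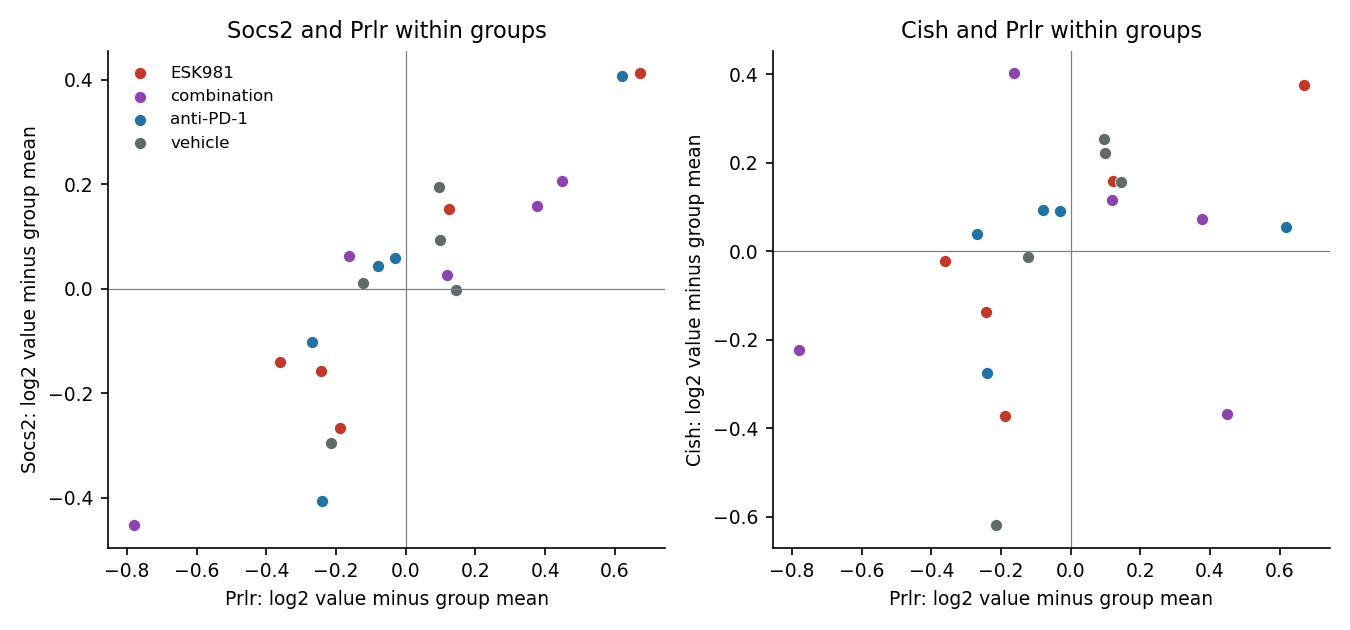
Socs2 (left) and Cish (right) against Prlr, each as the log2 value of a mouse minus the mean of its group, coloured by group (20 mice). Mice with more Prlr had more Socs2 (r = 0.889), with a wider scatter for Cish (r = 0.375).

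Among 9994 protein-coding genes with a mean of at least 1 FPKM, the 6 whose pattern over the 33 tumours was most like that of Prlr after the group means were removed were Mpped2 (r = 0.871), Trim24 (r = 0.862), Ddx26b (r = 0.856), Rcn1 (r = 0.851), Cadm2 (r = 0.848) and Zbtb20 (r = 0.830). These values are descriptions over tumours that share mice and libraries. Socs2 came next, at rank 7 with r = 0.820, ahead of Cish at rank 2917 (r = 0.407), Stat5a at rank 7446 (r = 0.114) and Stat5b at rank 8671 (r = -0.023). The likeness leaned on ESK981 1R and 2R: without them Socs2 was at r = 0.740 and rank 477, Mpped2 at r = 0.822 and rank 37, and Zbtb20 at r = 0.816 and rank 52. Stat5b was then at r = 0.279 and rank 7403, Cish at r = 0.243 and rank 7715, and Stat5a at r = -0.045 and rank 9322. Most of the 9994 genes thus had a positive r with Prlr in the deposited values, so 0 is not the level to compare these r values with.

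Transcripts of the hormone genes were at or near 0 in the tumours. Prl, the pituitary hormone gene for prolactin, was listed at 0 in all 33 tumours and Gh, for growth hormone, in 32; hormone that reaches the tumours by the blood was not measured. Of the ligand and growth factor list, Igf1, the main mediator of growth hormone action, passed the filter, at 0.25 ± 0.15 FPKM in ESK981 and 0.50 ± 0.31 FPKM in vehicle mice (SD, n = 5 each; limma adjusted p = 0.299). The mammary milk protein genes Csn1s1 and Wap were listed at 0 in all 33 tumours, and Csn2, Csn3 and Lalba were at 0 in 32, 28 and 29 of them.

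Across 8 lists of 100 entries around the pathway, 70 could be tested, and in ESK981 against vehicle 2 of the 70 rose and 20 fell, beside 8.95% of all genes higher and 5.43% lower. After median-of-ratios scaling 3 of the 70 were higher and 34 lower, beside 1997 genes higher and 2319 lower in place of 1418 and 860. Without ESK981 1R and 2R none of the 70 was higher and 14 were lower, beside 873 higher and 517 lower of all genes. Without the 3 doubtful libraries 5 were higher and 30 lower, beside 3074 higher and 1722 lower of all genes. The 14 JAK kinases and adaptors had 2 lower: Jak3, the kinase of the lymphoid common-gamma-chain receptors, at 0.62 ± 0.19 FPKM in ESK981 and 2.63 ± 1.07 FPKM in vehicle mice (limma adjusted p = 0.00727), and Tyk2, at 4.21 ± 0.90 and 6.38 ± 1.22 FPKM (limma adjusted p = 0.0416). Jak2, the kinase that both receptors use, was at 8.04 ± 0.87 FPKM in ESK981 and 7.99 ± 1.05 FPKM in vehicle mice (limma adjusted p = 0.891). Among 10 phosphatases and PIAS inhibitors, Ptpn6, the haematopoietic phosphatase SHP-1, was lower, at 2.22 ± 0.33 FPKM in ESK981 and 5.10 ± 1.68 FPKM in vehicle mice (limma adjusted p = 0.0198).

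Of the 6 SOCS genes outside the set, Socs1 and Socs3, feedback inhibitors of interferon and interleukin-6 signalling, fell. Socs1 was at 0.66 ± 0.35 FPKM in ESK981 and 4.06 ± 2.10 FPKM in vehicle mice (limma adjusted p = 0.00519), and Socs3 at 4.25 ± 1.94 and 9.46 ± 3.56 FPKM (limma adjusted p = 0.0164). Socs6 rose, at 3.32 ± 0.45 FPKM in ESK981 and 2.15 ± 0.29 FPKM in vehicle mice (limma adjusted p = 0.038). Socs2 and Cish, at log2 fold changes of 0.59 and 0.39 without a test, stood on the other side of 0 from Socs1 (-1.83) and Socs3 (-1.09). So did Socs4 (0.42), Socs5 (0.10) and Socs6 (0.53), while Socs7 was at -0.01. Without ESK981 1R and 2R, Socs2 was at 0.372 and Cish at 0.205, where the median of all genes was 0.163.

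The other receptors that signal through STAT5 held most of the lower calls: 11 of 13 tested fell, none rose, and the median log2 fold change was -1.01 against 0.11 for all genes. These are mainly receptors of blood cells. Csf2ra, the alpha chain of the GM-CSF receptor, was at 1.49 ± 0.58 FPKM in ESK981 and 7.23 ± 3.12 FPKM in vehicle mice (limma adjusted p = 0.0038). Il2rb, a chain of the interleukin-2 and interleukin-15 receptors, was at 0.50 ± 0.26 and 1.96 ± 0.51 FPKM in the same order (limma adjusted p = 0.0112). Il3ra had 0.38 ± 0.11 FPKM in ESK981 and 1.38 ± 0.70 FPKM in vehicle mice (limma adjusted p = 0.0118), and Il4ra 2.61 ± 0.24 and 8.95 ± 5.24 FPKM (limma adjusted p = 0.0127). Egfr, a receptor of epithelial cells, was at 1.30 ± 0.18 and 1.43 ± 0.46 FPKM (limma adjusted p = 0.903).

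Markers of other cell types moved in the same comparison (limma adjusted p under 0.05): 4 of 6 tested T and NK cell markers, 3 of 7 macrophage markers, 2 of 4 neutrophil markers and 4 of 6 fibroblast markers were lower and none of these was higher, while 2 of 5 endothelial markers were higher and none lower. The summed level of the T and NK cell list was 0.87 to 2.82 FPKM in ESK981 and 0.74 to 10.01 FPKM in vehicle tumours, and that of the macrophage list 58.2 to 116 FPKM in ESK981 and 92.4 to 243 FPKM in vehicle tumours. Summed fibroblast markers were at 27.6 to 57.5 FPKM in ESK981 and 52.6 to 686.5 FPKM in vehicle tumours, neutrophil markers at 1.21 to 7.72 and 2.66 to 18.9 FPKM, and endothelial markers at 5.58 to 9.66 and 0.16 to 6.64 FPKM in the same order of groups. Csf3r is in both the neutrophil list and the receptor list. Of 7 mitochondrial transcripts, listed as a sign of RNA quality, all 7 were lower in ESK981. The part of these differences in the receptor levels was not tested. With flow cell as a term 0 of the 13 receptors passed, with 1 tumour a mouse 3 of the 13 did, and without ESK981 1R and 2R 9 did, all lower.

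Of 14 STAT5 targets tested outside the set, 3 fell and none rose: Ccnd2, a D-type cyclin, at 0.61 ± 0.13 FPKM in ESK981 and 1.42 ± 0.41 FPKM in vehicle mice (limma adjusted p = 0.0159), Lif, a cytokine of the interleukin-6 family, at 0.67 ± 0.19 and 1.47 ± 0.70 FPKM (limma adjusted p = 0.0181), and Pim1, a survival kinase, at 5.17 ± 1.94 and 9.47 ± 1.87 FPKM (limma adjusted p = 0.0223). The median of the list was -0.09, and Bcl2l1, Mcl1 and Bcl6 had log2 fold changes of -0.08, 0.01 and -0.08. Of 8 mammary targets of prolactin tested, Gata3, a luminal transcription factor, was higher, at 42.4 ± 3.9 FPKM in ESK981 and 30.1 ± 0.6 FPKM in vehicle mice (limma adjusted p = 0.0298). With flow cell as a term, most calls over the 8 lists were higher in place of lower. All genes moved the same way in that fit. Their median was 0.60, and 96% of all called genes were higher, against 62.2% as deposited. The turn of the list counts is therefore not read as particular to the lists. Vehicle on the shared flow cell is the single library 5R in that fit. In combination against anti-PD-1 none of the 70 genes passed.

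**Figure D5:**
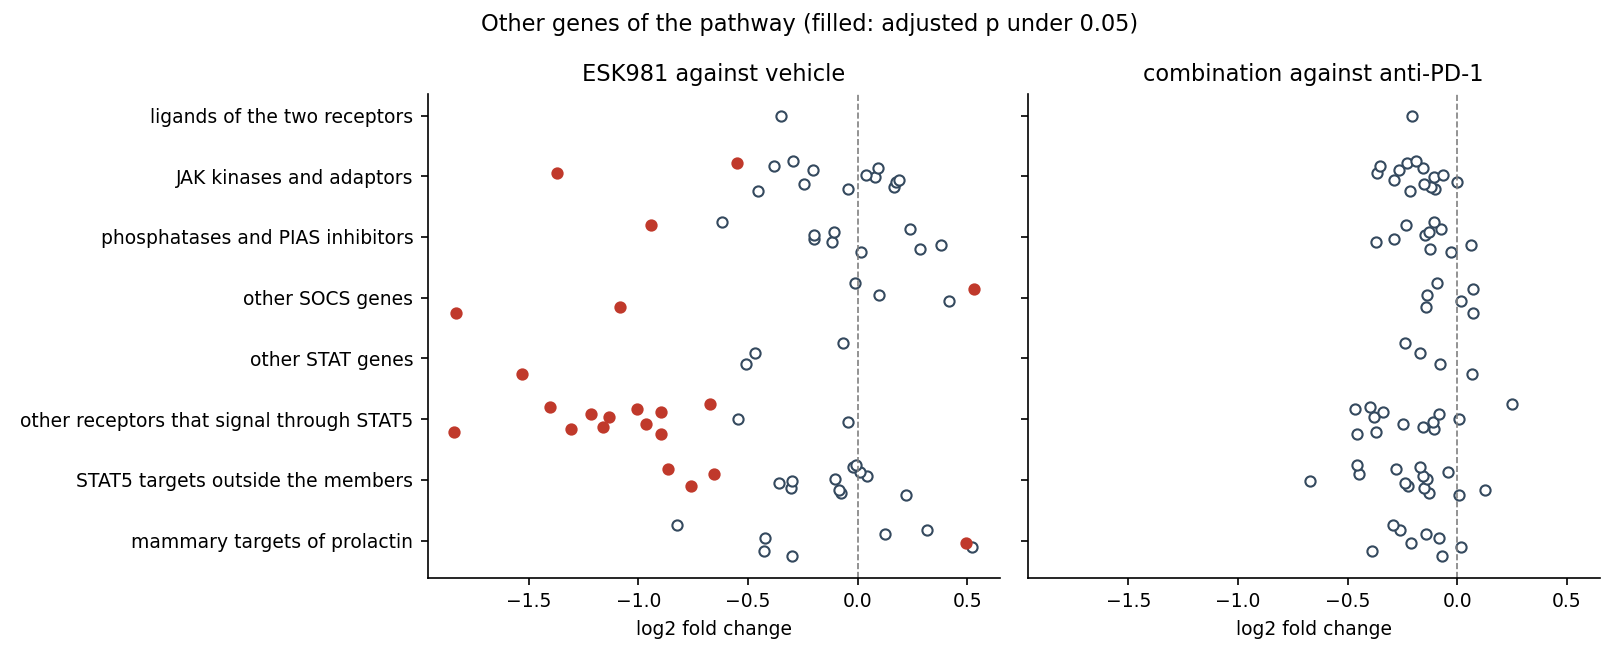
Log2 fold change (horizontal axis) of the tested genes of the 8 pathway lists (rows) in ESK981 against vehicle (left) and combination against anti-PD-1 (right); filled points passed an adjusted p of 0.05. On the left 2 genes are higher and 20 lower, 11 of them other receptors that signal through STAT5; on the right none is filled.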

How the data were processed

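RNA from 33 tumours of 20 mice was sequenced after ribosomal RNA depletion, per the labels' protocols. The authors deposited 1 matrix of FPKM values; STAR, featureCounts and the build mm10 are named in the submitters' processing notes, without versions, and neither annotation nor strand setting is given in the sources used here. The low FPKM values of a tumour, times exon length from GENCODE M21, were whole fragments (100% of low values within 0.01), which gave the depth.

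For the fits, permutation tests and relations, values of a mouse's tumours were averaged as log2(FPKM + 0.5). The means and SD in FPKM, the overlaps of mice and the rule for a mouse far from the others used plain FPKM averages. Fold changes from the fits therefore differ from ratios of the FPKM means. Genes with at least 0.5 FPKM in 5 tumours (15846) entered 1 limma-trend fit (limma 3.58.1, R 4.3.3) of 20 mice in 4 groups, two-sided, with Benjamini-Hochberg adjustment over all of them and a threshold of 0.05; residual and prior degrees of freedom were 16 and 5.07. The pseudocount shrinks the fold changes of low genes such as Ghr. The fit was tested on simulated data. Relations used 100000 permutations within groups (scipy 1.17.1). No 2 tumours had identical values, and separate mice are taken from the ear tags. Named list genes are those past the threshold in ESK981 against vehicle or combination against anti-PD-1, up to 4 per list by adjusted p, and the genes most like Prlr by r; Jak2, Egfr, Bcl2l1, Mcl1, Bcl6 and Igf1 were added after their values were seen. The 6 genes and the lists were chosen with earlier results of these data known. Alternatives covered pseudocount, filter, scaling, replicate unit, flow cell, libraries in doubt, variance model and each mouse left out. Some genes of the lists are not reported here.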

Additional observations from a re-analysis of the deposited data

Results flagged for a closer look

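In groups of 5 mice, a mouse far from the other 4 was found in 4 of the 24 gene and group combinations examined. The rule flags about 1 in 20 for independent, normally distributed values. The 6 genes were measured in the same mice, and Stat5a and Stat5b flag the same mouse, so the count is not read as an excess. Prlr in anti-PD-1 mouse 2 was at 20.85 FPKM, while the other 4 mice had 11.04 to 13.1 FPKM. Cish in anti-PD-1 mouse 4 was the lowest of its group at 3.029 FPKM, with the others at 3.516 to 3.715 FPKM. That value averages 4L at 4.448 FPKM and the doubtful library 4R at 1.611 FPKM; without the doubtful libraries the anti-PD-1 mice ran from 3.516 to 4.448 FPKM. In vehicle mouse 5, Stat5a was at 1.558 FPKM against 2.542 to 2.762 FPKM in the other vehicle mice. Stat5b in the same mouse was at 3.984 FPKM against 6.069 to 6.698 FPKM. Its tumour 5R, a doubtful library and the only vehicle tumour on the flow cell of the treated groups, had 1.345 FPKM for Stat5a and 3.683 FPKM for Stat5b. Tumour 5L, on the flow cell of the other vehicle tumours, was at 1.771 and 4.285 FPKM. The part of library and flow cell was not tested.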

How the results depend on the processing

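Leaving out each mouse in turn, the log2 fold change of Prlr between combination and anti-PD-1 ran from -0.0649 to 0.242 and that of Socs2 from -0.0981 to 0.117, so the sign of these near-zero values was not fixed; adjusted p stayed at 0.842 or above. With 1 tumour a mouse, Cish and Stat5a in that comparison changed sign to 0.0131 and 0.0455. The number of genes called there was 1 with no filter on low values and ran from 0 to 59 with a mouse left out, 59 without anti-PD-1 mouse 5; the cause was not tested. Calls in the 8 pathway lists for ESK981 against vehicle, 22 in all, were 13 with no filter, 37 with median-of-ratios scaling, 8 with 1 tumour a mouse, 12 with the flow cell term, 35 without the 3 doubtful libraries, and 14 without ESK981 1R and 2R; fewer tumours or other genes tested enter some of these fits, and otherwise the cause was not tested. The within-group r of Prlr and Socs2 kept its sign and its call in every alternative run, from 0.836 to 0.918.

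The following small values changed sign, none past the threshold. Combination against ESK981 without ESK981 1R and 2R gave 0.0443 for Cish, 0.00575 for Ghr and -0.119 for Stat5b; with a mouse left out it ran from -0.0376 to 0.125 for Stat5a and -0.0416 to 0.209 for Stat5b. Combination against vehicle gave Ghr 0.0278 with 1 tumour a mouse, 0.389 with the flow cell term and 0.0362 without the 3 doubtful libraries; Stat5a 0.0522 with nuclear scaling, 0.0161 with single tumours, 0.215 with 1 tumour a mouse, 0.567 with the flow cell term and 0.044 without the doubtful libraries; and Stat5b 0.0324, 0.0155, 0.058, 0.514 and 0.0938 under the same settings in turn. With a mouse left out these ran from -0.199 to 0.0831 for Ghr, -0.127 to 0.0739 for Stat5a and -0.151 to 0.113 for Stat5b. The interaction was 0.138 for Stat5a and 0.187 for Stat5b with median-of-ratios scaling, 0.0492 and 0.0861 with nuclear scaling, and 0.0191 and 0.116 with 1 tumour a mouse; Stat5a was at 0.0117 without ESK981 1R and 2R, and Stat5b at 0.00252 with single tumours and 0.0484 without the doubtful libraries. With a mouse left out the interaction ran from -0.186 to 0.0361 for Stat5a and -0.17 to 0.0807 for Stat5b.

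Over the alternatives other than leaving out a mouse, the genes called ran from 1040 to 5786 for ESK981 against vehicle (2278 as reported), 0 to 41 for combination against ESK981 (0), 0 to 4397 for anti-PD-1 against vehicle (124), 10 to 4467 for combination against vehicle (96) and 0 to 4033 for the interaction (4), each highest with the flow cell term except combination against ESK981, highest without the 3 doubtful libraries. Ghr rests on the fewest fragments of the 6 genes. No paired analysis was possible because mouse numbers do not pair animals across groups: each mouse carries its own ear tag.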
